A study of Mus musculus with 6 samples.

Results

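The genes described here serve glycolysis, gluconeogenesis, the pentose phosphate pathway and the response to low oxygen. They were taken by annotated symbol, each read by its brightest probe set. Of 35 listed genes, 31 were read by a probe set that names 1 gene, among 19933 such genes in all. Gapdh was named only by 25 probe sets shared with other genes and was not analysed here, and neither were Gpi1, Eno1 and G6pdx.

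Glycolysis splits glucose into pyruvate. Its entry is set by glucose transporters, hexokinases and phosphofructokinase, and its end by lactate dehydrogenase and the pyruvate dehydrogenase complex. Gluconeogenesis runs the other way through its own enzymes, and the pentose phosphate pathway draws on glucose phosphate for ribose and NADPH. Hypoxia-inducible factors (HIF) are transcription factors whose alpha subunits are marked for destruction by oxygen-dependent prolyl hydroxylases, and they raise many genes of glucose uptake and glycolysis. The jejunal enterocyte takes up dietary glucose, fructose and galactose, phosphorylates fructose with ketohexokinase, and carries the enzymes of gluconeogenesis.

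Affymetrix Gene 1.0 ST arrays measured the RNA of epithelial cells of the mouse jejunum, with 3 arrays for each of 2 groups. The 3 control samples had the genotype R26-M2rtTA, a doxycycline-dependent transactivator at the Rosa26 locus without the responsive transgene. The 3 transgenic samples had the genotype TRE-MSI2::R26-M2rtTA, in which doxycycline switches on MSI2, an RNA-binding protein of the Musashi family. Mice of both groups drank doxycycline for 24 hours. Rosa26 is active in most cell types, so the transactivator was not limited to the epithelium, and neither age nor strain is given in the sources used here. The comparison asks which transcripts differ between the genotypes after this day of doxycycline. Levels are log2 values of the deposited table, and log2 fold changes are transgenic minus control. A gene is said to have risen or fallen where limma gave an adjusted p under 0.05 over all 19933 genes.

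The array medians lay between 6.42 and 6.46. Msi2, the gene named in the labels, overlapped between the groups, with 11.30, 9.53 and 9.32 in the controls and 11.23, 10.58 and 11.44 in the transgenic arrays (adjusted p = 0.257). Control replicate 1 decides this, since without it the adjusted p was 0.00958. The larger change was in its paralog Msi1, from a mean of 7.60 to one of 13.26 (adjusted p = 0.000818). Every direction below is therefore that of the libraries labelled transgenic against the control-labelled ones. Control replicate 1 correlated with the other controls by 0.981 and 0.982 over all probe sets, and these with each other by 0.996. Of 11 enterocyte and epithelial markers Cdh1 rose and Vil1 fell, but with the replicate block 6 fell (Vil1, Alpi, Fabp2, Fabp1, Sis and Lct) and none rose, and both first calls were lost without any 1 of control replicates 2 and 3 or transgenic replicates 1 and 3. Their summed linear level was 71300 to 116000 in the controls and 50400 to 93400 in the transgenic arrays. All 9 markers of T cells and intraepithelial lymphocytes fell, from a summed level of 4660 to 7450 to one of 838 to 2000, though 3 passed without control replicate 2, control replicate 3 or transgenic replicate 3 and 6 without transgenic replicate 1. No gene of the goblet, Paneth, stromal, endothelial, erythroid or smooth muscle lists passed, except that the goblet genes Tff3 and Clca1 were lower with the replicate block (adjusted p = 0.0107 and 0.0127) and without control replicate 1 (0.0266 and 0.0375), Tff3 also without transgenic replicate 2, and stromal Dcn was higher without control replicate 1 (0.0322). Of 7 macrophage and neutrophil markers S100a9 rose by 1.14, and Cd68 passed with the block (adjusted p = 0.0232). In bulk samples, fewer cells of a type and less RNA per cell cannot be told apart.

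Of the 31 genes 22 did not pass the test, while single enzymes at the entry of sugar moved several-fold in opposite directions. Hexokinase 2 was 7.41-fold higher, the glucose transporter gene Slc2a1 3.97-fold, the phosphofructokinase regulator Pfkfb3 3.20-fold and Hif1a 3.17-fold. The fructose kinase gene Khk was 7.61-fold lower and the gluconeogenic Fbp1 4.69-fold lower. In all, 5 of the 31 genes rose (Hk2, Slc2a1, Pfkfb3, Hif1a and Pgk1) and 4 fell (Khk, Fbp1, Pdk1 and Pfkm). These 9 are 29.0% of the members, where 18.6% of all genes were called, 8.97% higher and 9.65% lower. The members had a median log2 fold change of -0.02, beside 0.02 over all genes, and a median size of 0.27, beside 0.18. The groups did not overlap in 12 of the 31, or 38.7%, beside 37.0% of all genes. All members but Ldhb had a mean level of at least 6, and many dim genes did not. Among the 12041 genes with such a mean 31.4% were called, 15.0% higher and 16.4% lower, and of the 30 members among them 10 were, or 33.3%, 6 higher and 4 lower. Their median size was 0.32, beside 0.36 over those genes, and the groups did not overlap in 40.0% of them, beside 48.3%. The share of members called was thus close to that of all genes with a mean of at least 6, and levels above this limit were not matched.

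**Figure D1:**
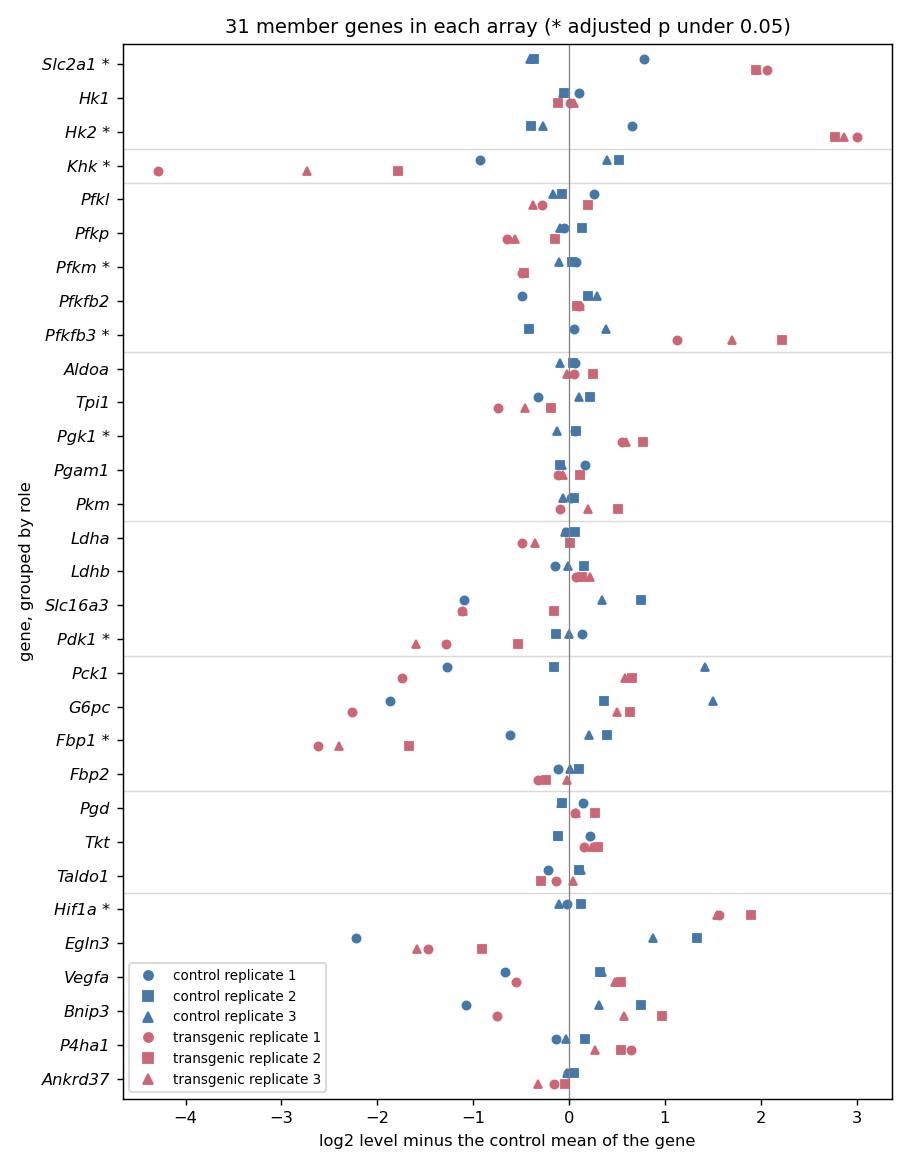
Log2 level of each of the 31 genes in each array, minus the control mean of that gene (horizontal axis), with genes grouped by role (vertical axis); blue points are the 3 control arrays, red points the 3 transgenic arrays, and the marker shape gives the replicate number. The red points of Hk2, Slc2a1, Pfkfb3, Pgk1 and Hif1a all lie right of the blue ones and those of Khk, Fbp1, Pdk1 and Pfkm all left, while Pck1, G6pc, Vegfa and Bnip3 spread widely in both groups with replicate 1 lowest in each.

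The promoters of the 5 genes that rose are shown because these genes passed in 1 direction, which is how they were picked, and are known targets of HIF or, for Hif1a, encode its alpha subunit, and that of Ldha because it is such a target too but did not rise. Each line gives the 160 bases before the transcription start, 5′ to 3′ on the gene's strand, from RefSeq on GRCm38.p6. Capitals mark ACGTG, the core letters of the hypoxia response element, or CACGT where it lies on the opposite strand. The letters CACGTG, an E-box that MYC family proteins can bind, hold the motif on both strands and were counted as 1 site. The stretches lie at chr4:119108585-119108744 (plus strand, Slc2a1), chr6:82774455-82774614 (minus strand, Hk2), chr2:11553930-11554089 (minus strand, Pfkfb3), chrX:106186940-106187099 (plus strand, Pgk1), chr12:73907707-73907866 (plus strand, Hif1a) and chr7:46845644-46845803 (plus strand, Ldha).
Slc2a1: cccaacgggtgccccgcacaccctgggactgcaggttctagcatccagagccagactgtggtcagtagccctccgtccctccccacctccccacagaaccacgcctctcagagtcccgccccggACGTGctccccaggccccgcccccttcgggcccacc
Hk2: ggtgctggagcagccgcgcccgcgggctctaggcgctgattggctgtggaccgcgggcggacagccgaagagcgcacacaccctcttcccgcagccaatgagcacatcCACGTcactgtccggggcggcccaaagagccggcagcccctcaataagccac
Pfkfb3: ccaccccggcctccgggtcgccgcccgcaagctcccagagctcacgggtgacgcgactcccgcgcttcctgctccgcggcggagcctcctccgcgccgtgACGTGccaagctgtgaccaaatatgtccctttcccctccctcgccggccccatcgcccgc
Pgk1: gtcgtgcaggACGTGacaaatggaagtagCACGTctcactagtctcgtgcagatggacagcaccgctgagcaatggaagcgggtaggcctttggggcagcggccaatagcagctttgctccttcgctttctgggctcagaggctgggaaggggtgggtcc
Hif1a: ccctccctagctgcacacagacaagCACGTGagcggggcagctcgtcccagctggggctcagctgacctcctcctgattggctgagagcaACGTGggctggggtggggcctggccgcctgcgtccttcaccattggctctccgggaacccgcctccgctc
Ldha: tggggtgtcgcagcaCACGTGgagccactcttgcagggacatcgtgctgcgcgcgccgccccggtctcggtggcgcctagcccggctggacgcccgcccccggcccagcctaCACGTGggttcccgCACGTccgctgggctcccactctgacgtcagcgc

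All 31 analysed genes had a promoter window in the RefSeq table, running from 250 bases before to 50 after the start. The motif was in a window of all 5 genes that rose, of 2 of the 4 that fell (Khk and Pfkm, which both hold CACGTG) and of 13 of the 22 that did not pass, or 59.1%. Among all 27025 genes of the RefSeq promoter set, 21.8% held it in a window of 300 bases, and of the 15610 tested genes found there 24.4%. Of the 9635 such genes with a mean of at least 6, 29.0% held it. Among tested genes the share was 31.3% for those called higher, 25.7% for those called lower and 23.5% for the rest. Ldha, which had 3 sites in the stretch shown, and Slc16a3, which had 2 sites, did not rise. A match describes the letters of this window and shows no binding.

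Glucose enters epithelial cells from the blood side through facilitative transporters, and Slc2a1 encodes the ubiquitous one. Its level was 10.65, 9.51 and 9.46 in control replicates 1, 2 and 3 and 11.94, 11.82 and 11.83 in the transgenic replicates. The transgenic values lay within 0.12 of each other and above all controls, of which replicate 1 was the highest. Slc2a1 rose by 1.99 ± 0.32 (SE), with an adjusted p of 0.0132. It missed the threshold, at adjusted p values of 0.0511 to 0.0585, without control replicate 2, control replicate 3, transgenic replicate 1 or transgenic replicate 3, while the log2 fold change stayed between 1.78 and 2.38 in the 6 fits that left out 1 array.

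Hexokinases trap glucose in the cell by phosphorylating it, and Hk2 encodes the form known for its regulation by insulin and HIF. Hk2 was at 8.98, 7.92 and 8.05 in the controls and at 11.33, 11.10 and 11.19 in the transgenic arrays. The groups were apart by more than their ranges, although control replicate 1 again lay nearest to the transgenic arrays. Hk2 rose by 2.89 ± 0.28 (SE; adjusted p = 0.00361), and it kept its call in all 6 fits without 1 array, with a highest adjusted p of 0.0254.

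Hk1, which encodes the broadly expressed hexokinase, gave 2 different readings. The probe set with the highest mean was at 12.57, 12.42 and 12.41 in the controls and 12.48, 12.36 and 12.52 in the transgenic arrays, a log2 fold change of -0.01 (adjusted p = 0.954). Its annotation lists no RefSeq transcript of Hk1 but 1 accession, which all 16 probe sets naming both Hk1 and the ribosomal protein gene Rpl17 list too, and these had means of 11.40 to 12.61. The other probe set lists 2 RefSeq transcripts of Hk1 and was at 6.88, 6.89 and 7.26 in the controls and 7.94, 7.85 and 7.66 in the transgenic arrays. On that probe set Hk1 had a log2 fold change of 0.80 ± 0.14 (SE; adjusted p = 0.0149), with no overlap of the groups. This second reading was taken after its values were seen, and with it 10 of the 31 genes passed.

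Khk encodes ketohexokinase, the first enzyme of fructose use. It was at 9.53, 10.98 and 10.86 in the controls and at 6.17, 8.68 and 7.73 in the transgenic arrays. The lowest control lay above the highest transgenic array, and replicate 1 was the lowest in both groups. Khk fell by 2.93 on the log2 scale, with a standard error of 0.70 and an adjusted p of 0.0365. The call was lost with animal sex as a block (adjusted p = 0.0773), and also without control replicate 2, control replicate 3, transgenic replicate 1 or transgenic replicate 3 (adjusted p = 0.126, 0.129, 0.0717 and 0.111).

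Of 19 other genes of glycolysis and hexose entry, 1 rose and 4 fell, beside 8.97% and 9.65% of all genes. Among all genes with a mean of at least 6 these shares were 15.0% and 16.4% in their own fit. This list was not counted apart in that fit. The 19 had a median log2 fold change of -0.58, beside 0.02 over all genes. The galactose enzymes Galm and Galt fell by 2.02 and 0.58, the hexokinase-like Hkdc1 fell by 1.35 and the muscle enolase gene Eno3 fell by 1.16. With sex as a block Galt, Hkdc1 and Eno3 lost their call (adjusted p = 0.0727, 0.0782 and 0.0694). Tigar, whose product lowers the activator of phosphofructokinase, rose by 0.56. The fructose transporter gene Slc2a5 was at -2.24 and the triokinase gene Tkfc, which acts after ketohexokinase, was at -2.27 ± 0.61 (SE), and neither passed (adjusted p = 0.071 and 0.0504), but both did with the replicate number as a block (adjusted p = 0.00255 and 0.0131). The glucose and fructose transporter gene Slc2a2 (-2.63), the sodium-coupled glucose transporter gene Slc5a1 (-0.83) and the pyruvate kinase gene Pklr (-1.32) did not pass either, with adjusted p values of 0.144, 0.271 and 0.103, and passed with the block at 0.00848, 0.0169 and 0.0105. Tkfc was named after its value was seen.

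Phosphofructokinase commits sugar to glycolysis, and the Pfkfb enzymes make and remove its activator. Pfkfb3, which strongly favours making it, was at 8.63, 8.16 and 8.97 in the controls and 9.71, 10.80 and 10.28 in the transgenic arrays. The groups did not overlap, and transgenic replicate 1 was the nearest to the controls. Pfkfb3 rose by 1.68 ± 0.32 (SE; adjusted p = 0.0206), and it no longer passed without control replicate 2, control replicate 3 or transgenic replicate 3 (adjusted p = 0.0753, 0.0549 and 0.0823). Its relative Pfkfb2 did not pass (0.10, adjusted p = 0.80), with a control range of 9.24 to 10.02 around transgenic values of 9.81 to 9.85.

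The muscle-type subunit gene Pfkm was at 7.37, 7.33 and 7.20 in the controls and 6.81, 6.83 and 6.83 in the transgenic arrays. This was a small difference with little spread, and Pfkm fell by 0.48 (SE 0.08, adjusted p = 0.0124). It did not pass without control replicate 2, transgenic replicate 1 or transgenic replicate 3, at adjusted p values of 0.0596, 0.0510 and 0.0532. The platelet-type Pfkp had a log2 fold change of -0.46 ± 0.15 (SE) with groups that did not overlap, and it did not pass (adjusted p = 0.0845) except with the replicate block (0.0283), with array weights (0.0175) or without transgenic replicate 2 (0.0181). The liver-type Pfkl was at -0.15 (adjusted p = 0.639).

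Of the 5 lower glycolytic enzymes analysed 1 passed, where 18.6% of all genes did. This was Pgk1, the phosphoglycerate kinase that makes the first ATP of the pathway. It was at 11.73, 11.74 and 11.55 in the controls and 12.22, 12.44 and 12.27 in the transgenic arrays. The groups lay apart with similar spread, and Pgk1 rose by 0.64 ± 0.10 (SE; adjusted p = 0.0118), or 1.55-fold. It lost its call without control replicate 3 (adjusted p = 0.0514). Its 3 probe sets gave 0.64, 0.64 and 0.63, and only the last has neighbours in identifier order on the chromosome of Pgk1. The 3 are therefore not taken as independent readings. Aldolase A (Aldoa) was at 0.09, phosphoglycerate mutase (Pgam1) at -0.02 and pyruvate kinase M (Pkm) at 0.20, with overlapping groups and adjusted p values of 0.601, 0.927 and 0.437. Triosephosphate isomerase (Tpi1) was at -0.47 ± 0.19 (SE; adjusted p = 0.154), and it passed with the replicate block (0.0194), with array weights (0.0153) and without control replicate 1 (0.0445).

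**Figure D2:**
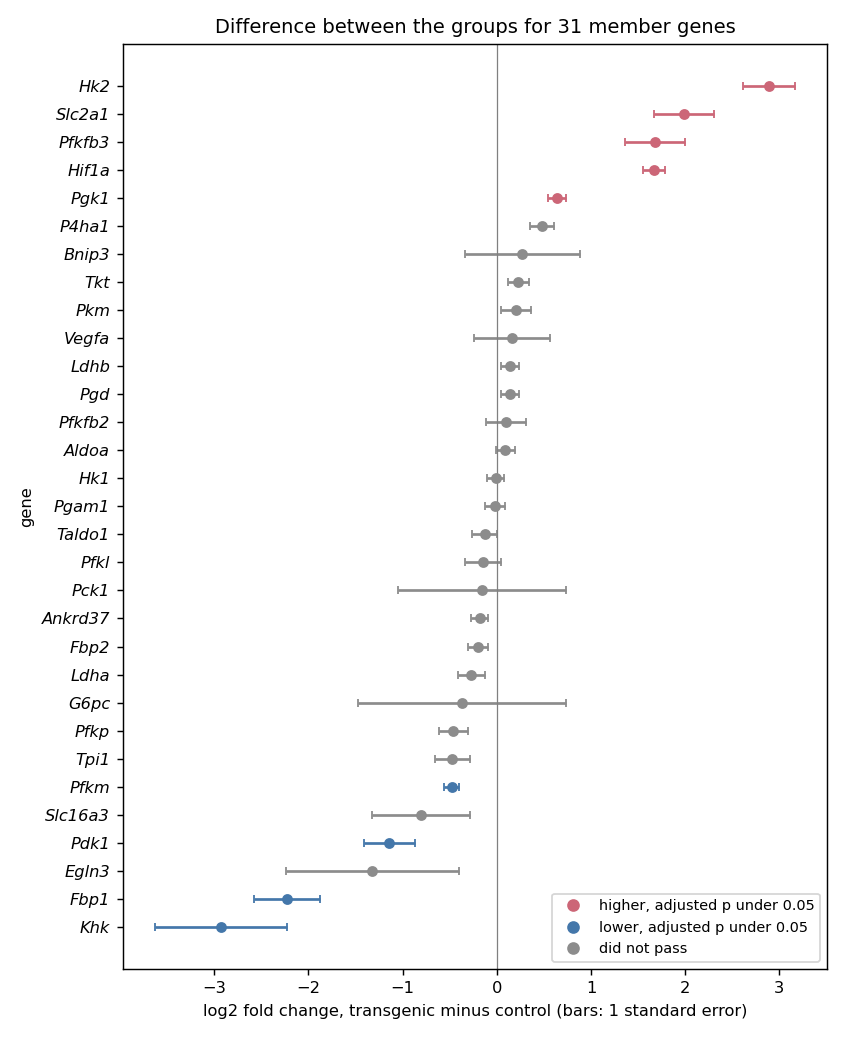
Log2 fold change (transgenic minus control) of the 31 genes with 1 standard error from limma, sorted by size; red marks genes that rose, blue genes that fell and grey genes that did not pass. Hk2 at 2.89 and Khk at -2.93 stand at the ends, and the widest bars belong to G6pc, Egln3 and Pck1.

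At the exit of glycolysis, lactate dehydrogenase A (Ldha) had a log2 fold change of -0.27 ± 0.14 (SE) and did not pass (adjusted p = 0.223), except without transgenic replicate 2 (0.0323). Ldhb was read between 5.22 and 5.59 in all arrays, just above the 4.07 to 5.06 that Xist and Y-linked genes showed in animals lacking those transcripts, so its value of 0.14 carries little information. Slc16a3, a lactate exporter, was at 7.05, 8.89 and 8.49 in the controls and 7.02, 7.98 and 7.04 in the transgenic arrays. Control replicate 1 lay with the transgenic arrays, and the log2 fold change of -0.80 did not pass (adjusted p = 0.356), but without that array it was -1.34 (adjusted p = 0.0327), and with array weights the adjusted p was 0.0249.

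Pdk1 encodes a kinase that turns off pyruvate dehydrogenase and is a known HIF target. It was at 7.98, 7.71 and 7.84 in the controls and 6.56, 7.31 and 6.24 in the transgenic arrays. The groups did not overlap, and Pdk1 fell by 1.14 (SE 0.27, adjusted p = 0.0356), opposite in direction to Hk2, Slc2a1 and Pgk1. The call rested on all arrays but transgenic replicate 2, since it was lost without any other 1 of them (adjusted p = 0.0546 without control replicate 1, up to 0.117 without control replicate 3) and with sex as a block (0.0629).

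Of 13 other genes of pyruvate and lactate, 3 rose and 3 fell, beside 8.97% and 9.65% of all genes. Among all genes with a mean of at least 6 these shares were 15.0% and 16.4% in their own fit. The phosphatases that reactivate pyruvate dehydrogenase moved apart, as Pdp1 rose by 1.66 and Pdp2 fell by 0.98. The kinase Pdk3 fell by 0.84 and the mitochondrial pyruvate carrier subunit Mpc1 fell by 0.74. Slc16a1, a transporter of lactate and pyruvate, rose by 0.57, and the D-lactate dehydrogenase gene Ldhd rose by 0.96. With sex as a block Mpc1, Slc16a1 and Ldhd lost their call (adjusted p = 0.09, 0.0525 and 0.101).

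Gluconeogenesis showed 1 fall among 4 genes, where 9.65% of all genes fell, and 4 genes are too few to compare with that share. Fbp1, the liver-type fructose bisphosphatase that opposes phosphofructokinase, was at 9.08, 10.09 and 9.90 in the controls and 7.07, 8.02 and 7.29 in the transgenic arrays. All transgenic values lay below all controls, with replicate 1 lowest in both groups. Fbp1 fell by 2.23 (SE 0.35, adjusted p = 0.0119), but it did not pass without control replicate 2, control replicate 3 or transgenic replicate 3 (adjusted p = 0.0523, 0.0582 and 0.0571). The muscle-type Fbp2 was at -0.20 ± 0.11 (SE) and did not pass (adjusted p = 0.264).

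Pck1 encodes phosphoenolpyruvate carboxykinase, an entry step of gluconeogenesis. It was at 9.28, 10.39 and 11.97 in the controls and 8.81, 11.21 and 11.13 in the transgenic arrays. G6pc encodes the glucose phosphatase that releases free glucose. It was at 9.14, 11.38 and 12.51 in the controls and 8.75, 11.65 and 11.51 in the transgenic arrays. In both genes the spread within each group was far larger than the difference between groups, and replicate 1 was the lowest of either group. Their log2 fold changes were -0.16 ± 0.89 and -0.37 ± 1.10 (SE), with adjusted p values of 0.928 and 0.861. Of 16 other genes of gluconeogenesis and glycogen none rose and 1 fell, beside 8.97% and 9.65% of all genes. Among all genes with a mean of at least 6 these shares were 15.0% and 16.4% in their own fit. The 1 that fell was the glycogen phosphorylase gene Pygb, by 1.18. Pck2, the mitochondrial carboxykinase, was at -0.25 (adjusted p = 0.194).

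The 3 analysed enzymes of the pentose phosphate pathway showed no change that passed, where 18.6% of all genes passed. The phosphogluconate dehydrogenase Pgd was at 0.14 (adjusted p = 0.437), transketolase (Tkt) at 0.23 ± 0.11 (SE; adjusted p = 0.216) and transaldolase (Taldo1) at -0.13 (adjusted p = 0.558), and the groups overlapped for each. Tkt passed without control replicate 1 (adjusted p = 0.033) and with array weights (0.0308). Of 9 other genes of this pathway and ribose use, 2 rose and 4 fell, beside 8.97% and 9.65% of all genes. Among all genes with a mean of at least 6 these shares were 15.0% and 16.4% in their own fit. The 9 had a median log2 fold change of -0.06. H6pd, the dehydrogenase that starts the pathway inside the endoplasmic reticulum, was at 8.57, 8.45 and 8.60 in the controls and 10.41, 10.42 and 10.47 in the transgenic arrays. It rose by 1.89 ± 0.08 (SE; adjusted p = 0.000629) and kept its call without any 1 array, with a highest adjusted p of 0.00784. The phosphoribosyl pyrophosphate synthetase Prps1 rose by 0.84. The ribokinase gene Rbks fell by 1.02, the sedoheptulose kinase gene Shpk fell by 0.96, the epimerase gene Rpe fell by 0.73 and the lactonase gene Pgls fell by 0.41. Pgls lost its call with sex as a block (adjusted p = 0.0912).

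Of the 6 hypoxia genes 1 passed, where 18.6% of all genes did. This was Hif1a, the oxygen-regulated HIF alpha subunit. It was at 10.51, 10.66 and 10.43 in the controls and 12.10, 12.43 and 12.07 in the transgenic arrays. The groups were apart by several times their spread, and control replicate 1 lay between the other controls. Hif1a rose by 1.67 ± 0.12 (SE; adjusted p = 0.00195), and it kept its call in all 16 alternative fits, with a highest adjusted p of 0.0164. These arrays read the transcript and not the protein, whose stability oxygen sets.

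The other 5 hypoxia genes did not pass in the main fit, which does not show that they were unchanged. Egln3, a prolyl hydroxylase, was at 6.90, 10.46 and 10 in the controls and 7.65, 8.21 and 7.53 in the transgenic arrays. Control replicate 1 stood at -3.33 from the mean of the other controls and under every transgenic array. The log2 fold change of -1.32 ± 0.92 (SE) did not pass (adjusted p = 0.385), but without control replicate 1 it was -2.43 (adjusted p = 0.00352), and with array weights the adjusted p was 0.0222. The angiogenic factor Vegfa and the mitophagy receptor Bnip3 were at 0.16 and 0.27, with adjusted p values of 0.830 and 0.818. The probe set used for Bnip3 had none of its 11 named neighbours in identifier order on the chromosome of Bnip3. On its other probe set, placed with the gene, Bnip3 was at 0.07 ± 0.22 (SE; limma adjusted p = 0.878). All other values of Bnip3 in single arrays are those of the first. P4ha1, a collagen prolyl hydroxylase subunit, was at 0.48 ± 0.13 (SE) with groups that did not overlap, and it missed the threshold (adjusted p = 0.0517) but passed with the replicate block (0.0484), among genes with a mean of at least 6 (0.0461), with renewed quantile normalization (0.0488) and with array weights (0.0496). Ankrd37 was at -0.18 (adjusted p = 0.249).

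Of 31 further genes of the hypoxia pathway and known HIF targets, 9 rose and 1 fell, beside 8.97% and 9.65% of all genes. In the fit of genes with a mean of at least 6, 15.0% of all such genes rose and 16.4% fell. This list was not counted apart in that fit. The 31 had a median log2 fold change of 0.34, beside 0.02 over all genes. The stanniocalcin gene Stc2 rose by 1.88, the vasodilator peptide gene Adm rose by 2.39, and Ero1a, an oxidase of protein folding, rose by 1.02. Epas1, which encodes another HIF alpha subunit, was at 6.89, 8.19 and 8.22 in the controls and 10.11, 10.16 and 10.46 in the transgenic arrays, and it rose by 2.47 ± 0.37 (SE; adjusted p = 0.0107). The other 5 that rose were Ddit4, Hif3a, Hmox1, Higd1a and Ak4. Mxi1, an antagonist of MYC, fell by 1.30. Hif3a, Ak4 and Mxi1 lost their call with sex as a block. The HIF partner Arnt and the regulators Egln1, Egln2, Vhl and Hif1an did not pass, with log2 fold changes between -0.09 and 0.41. These regulators, and the 5 genes listed by name alone, were chosen after their values were seen.

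**Figure D3:**
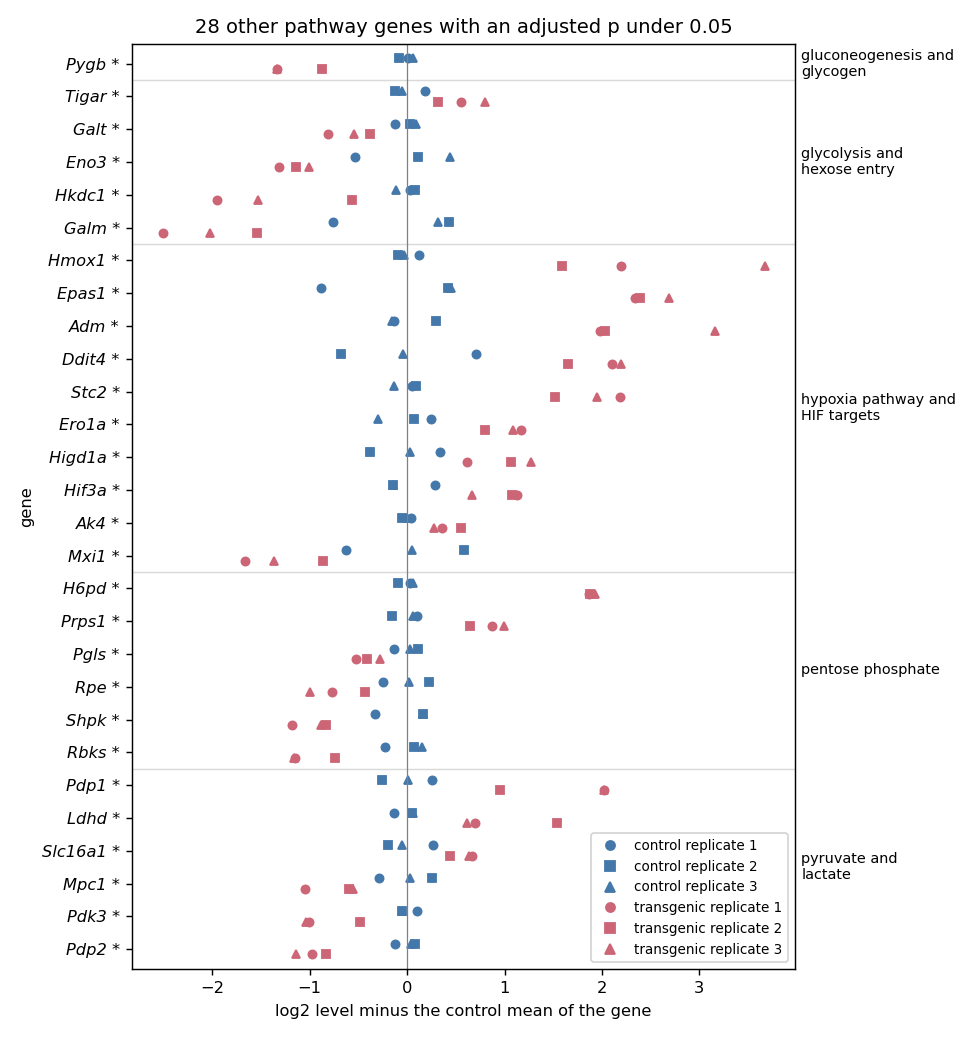
Log2 level in each array minus the control mean for the 28 of 86 further pathway genes with an adjusted p under 0.05, grouped by list; symbols and colours stand for replicate and group as in the plot of the 31 genes. Red points lie right of the blue ones for 15 genes, 9 of them in the hypoxia list, and left for 13.

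Over all lists, 86 further genes were measured once each, of which 15 rose and 13 fell, a share to be read against the same 18.6% of all genes. Of the 75 with a mean of at least 6, 32 passed in the fit of such genes, or 42.7%, beside 31.4%. Blocking on the replicate number, 19 of these 86 rose and 27 fell, where 25.8% of all genes were called, 12.7% higher and 13.1% lower. Without control replicate 1, 17 rose and 20 fell, where 27.8% of all genes were called. Without control replicate 2, control replicate 3 or transgenic replicate 3, 2 fell in each case, where 2.51%, 2.39% and 2.76% of all genes did. In these fits 6, 7 and 6 rose, where 2.39%, 2.39% and 2.62% of all genes did. Without transgenic replicate 1, 6 rose and 3 fell, where 3.31% and 3.57% of all genes did. Adm, H6pd, Pdp2, Prps1, Pygb and Stc2, 6 of the 28 called genes, kept their call without any 1 array, and the other 22 lost it in at least 1 such fit. With sex as a block 18 of the 28 kept their call and 10 lost it, where 10.8% of all genes were called.

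Genes that serve the same step were compared with each other. The exact permutation test could pass no pair, since its smallest possible p, 0.1, lies above the threshold used here. It therefore decides nothing about these pairs, and the shifts are described by their size. Within each array the log2 value of 1 gene was subtracted from that of its partner, and the shift of this difference between groups was compared in 8 pairs. The shift was 2.03 ± 0.39 (SE) for Fbp2 over Fbp1, with a 95% interval of 0.94 to 3.12, 1.58 ± 0.47 for Pfkfb3 over Pfkfb2, with an interval of 0.28 to 2.87, and 4.62 ± 1.62 for Slc2a1 over Slc2a2, with one of 0.12 to 9.13. Hk2 over Hk1 shifted by 2.90 on the probe set with the highest mean and by 2.08 ± 0.41 on the one that lists the transcripts of Hk1. In these 4 pairs the groups did not overlap, and each gave an exact two-sided permutation p of 0.1, the smallest that 3 against 3 arrays allow, and 0.16 after Benjamini-Hochberg adjustment over the 8 pairs. The groups overlapped for Pfkp and for Pfkm over Pfkl, with shifts of -0.30 and -0.32, and for Pck1 over Pck2, with 0.09 and an interval of -3.03 to 3.21. Ldha over Ldhb was the last of the 8, and its shift is not read here, since Ldhb lay next to the level of absent transcripts and its other probe set, with means of 4.69 and 4.75, within it.

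**Figure D4:**
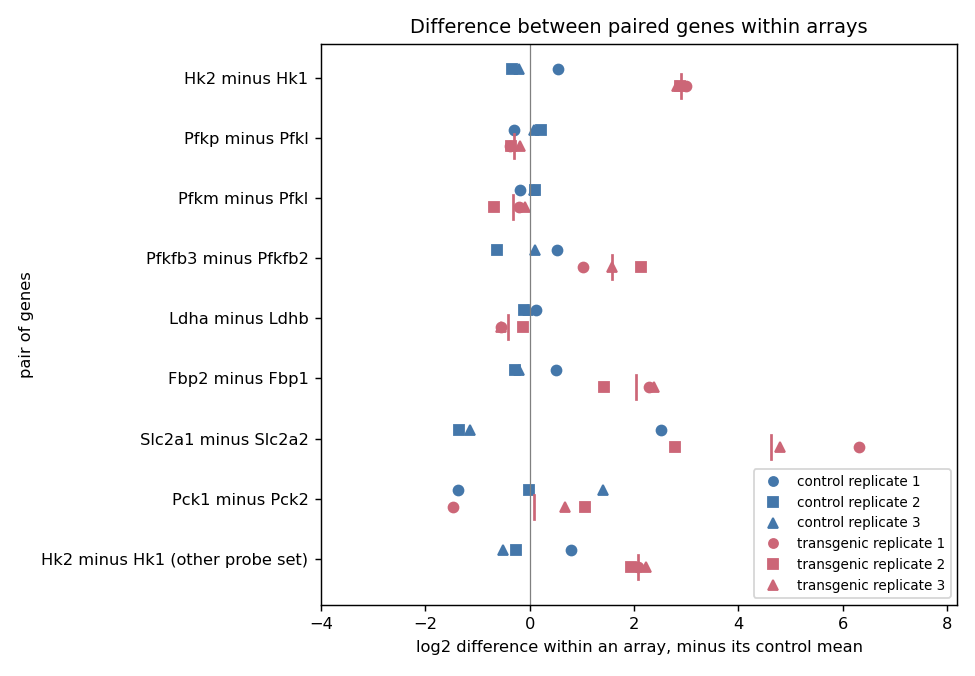
Log2 difference between 2 genes of 1 step within each array, minus its control mean (horizontal axis), for 8 pairs and for Hk2 against the other Hk1 probe set; blue and red points are control and transgenic arrays, and the vertical bar is the transgenic mean. The transgenic points of Hk2 minus Hk1, Pfkfb3 minus Pfkfb2, Fbp2 minus Fbp1 and Slc2a1 minus Slc2a2 lie right of all control points, and those of Pck1 minus Pck2 span the same range as the controls.

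The members differed in how control replicate 1 stood to the other controls. It lay more than 0.5 from their mean in 11 of the 31 genes, and in all 11 on the side of the transgenic mean. For Slc2a1 and Hk2 it was higher, by 1.17 and 0.99. In the 9 others it was lower, from -0.73 for Pfkfb2 and -0.91 for Fbp1 to -2.80 for G6pc and -3.33 for Egln3. Both differences are taken from the same pair of controls, so they are not independent. For Pfkfb2, Vegfa and Bnip3 the transgenic mean itself lay only -0.14, -0.17 and -0.27 from those controls. How often control replicate 1 lay so among all genes was not counted. For Hif1a (-0.03), Pfkfb3 (0.07) and Pgk1 (0.09) control replicate 1 stood with the other controls.

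**Figure D5:**
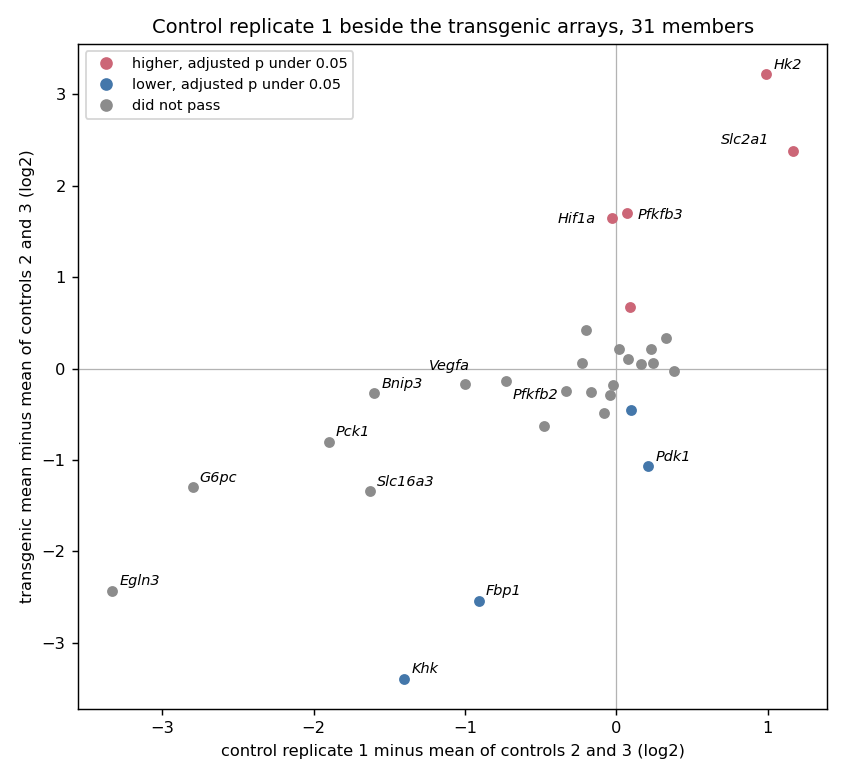
Control replicate 1 (horizontal axis) and the mean of the transgenic arrays (vertical axis), both as log2 difference from the mean of control replicates 2 and 3, for the 31 genes; red marks genes that rose, blue genes that fell and grey genes that did not pass. Egln3, G6pc, Pck1, Slc16a3 and Bnip3 lie far left, while Hif1a, Pfkfb3 and Pdk1 lie near 0 on the horizontal axis and away from 0 on the vertical one.

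The summed level of the enterocyte markers was 71300 in control replicate 1 against 116000 and 114000 in the other controls. In transgenic replicates 1, 2 and 3 it was 50400, 93400 and 72800, so the groups overlapped. Replicate 1 was thus the lowest in both groups, as it was for 10 of the 31 genes. Among these were Khk, Fbp1, Pck1, G6pc, Slc16a3, Vegfa and Bnip3. This did not hold for the 5 genes that rose, and the share of all genes with this order was not counted. The part of enterocyte content in the falls of Khk and Fbp1, and that of the lower lymphocyte transcripts, was not tested. Without control replicate 1, 6 of the 31 genes rose and 6 fell, where 13.4% and 14.4% of all genes did. Pdk1 then lost its call, Egln3, Slc16a3, Tpi1 and Tkt gained one, and the 8 others remained.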

How the data were processed

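The deposited table holds log2 expression values of 28350 probe sets, 1 column per array. Per the submitters' processing notes the authors used Partek and RMA, which corrects background, normalizes between arrays and summarises probes, which compresses differences at the dim end. No versions, genome build or background flags are given in the sources used here. Of the probe sets 21780 named 1 gene, 1618 named several and 4952 had no name here. A RefSeq table of GRCm38.p6 updated symbols by gene identifier and matched 21689. Each gene was read by its 1-gene probe set with the highest mean. The groups were compared in R 4.3.3 over all 19933 genes by limma 3.58.1 (a linear model with no term but group, moderated by eBayes, two-sided, Benjamini-Hochberg adjustment, threshold 0.05), checked on simulated arrays. Exact permutation tests used SciPy 1.17.1. Precision is limited by the number of arrays.

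The members, lists and tests were chosen with earlier results of these data known. Every member is accounted for. Of the other pathway genes, up to 4 per list and direction with the lowest p among those past the threshold were named, with a few genes fixed by name, 1 of them not reported here. Sex was read from Xist and 3 Y-linked genes, for 1 alternative and for the level that absent transcripts show. By these genes control replicates 1, 2 and 3 were female, male and female, and the transgenic ones male, male and female. The groups were thus not balanced by sex, and the main fit has no term for it. Across genes, deviations from the means of the groups correlated by 0.52, 0.41 and 0.13 in arrays sharing replicate number 1, 2 and 3. Between arrays of unlike number the correlations lay from -0.44 to 0.32, the highest for control replicate 3 with transgenic replicate 2. No label says what a number shares, and such deviations cancel within each group. The block is therefore an alternative, printed where it changes a call of a gene the text names. The labels call the samples biological replicates. No protein sequences were used here.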

Additional observations from a re-analysis of the deposited data

How the results depend on the processing

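The 9 genes called among the 31 kept their direction in every alternative, and Hif1a and Hk2 also their call in all 16. Of 144 refitted values of the 9 genes, 119 kept the call and 25, in 7 genes, lost it. The 5 higher and 4 lower members became 6 and 6 under a replicate block (25.8% of all genes called), a change that gave P4ha1, Pfkp and Tpi1 a call and altered no other member's. Array weights called 8 members lower (17.3% of all genes), and sex as a block 2 (5.47%). With 1 array left out, limma called 2 to 6 members higher and 0 to 6 lower, while it called 4.78% to 27.8% of all genes. None was called lower by limma without control replicate 2 or transgenic replicate 3, where 2.51% and 2.76% of all genes were. Without control replicate 3 or transgenic replicate 1, 1 was. Without control replicate 2 and transgenic replicate 3, 4 and 5 members had an unadjusted limma p under 0.05 in that direction. The share of all genes with such an unadjusted p was not counted, so these counts have nothing to be read against. Among the 86 further genes 15 were higher and 13 lower. Array weights called 23 higher and 26 lower, where they called 18.2% and 17.3% of all genes. The replicate block called 27 lower (13.1% of all genes) and sex as a block 7 (5.47%). With 1 array left out 6 to 17 were higher and 2 to 20 lower, while 4.78% to 27.8% of all genes were called. The causes were not tested.

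Directions turned only in genes that had not passed. Hk1 was at 0.40 over the mean of its probe sets (adjusted p = 0.0244), at 0.80 on the probe set placed with its gene, an alternative chosen after seeing the data, and at 0.04, 0.05 and 0.02 with renewed quantile normalization, array weights and sex as a block. With array weights Pfkfb2 was at -0.08, Pgam1 at 0.02, Vegfa at -0.12 and Bnip3 at -0.23. On the probe set placed with its gene Pgam1 was at 0.0, and with sex as a block Pck1 was at 0.07. With 1 array left out Hk1 ranged from -0.04 to 0.04, Pfkfb2 from -0.14 to 0.24, Pgam1 from -0.09 to 0.06, Pck1 from -0.79 to 0.63, G6pc from -1.31 to 0.57, Vegfa from -0.17 to 0.52 and Bnip3 from -0.27 to 0.77. Of the 6 genes with several probe sets, 5 were read by one whose neighbours in identifier order lie on other chromosomes, and only Hk1 changed its call on the other. The shift of Hk2 over Hk1 was 2.49 over the mean of probe sets.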
